A study of Mus musculus with 4 samples.

Results

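The genes described here are 32 genes of the lysosome and of the uptake of photoreceptor outer segments, out of 32285 genes in the deposited tables. They were listed by symbol, not by measured values, though earlier results of these data were known when they were chosen. All 32 symbols were found once in the gene lists of the libraries. The set holds 9 proteases (Ctsa, Ctsb, Ctsd, Ctsl, Ctss, Ctsz, Ctsk, Lgmn and Tpp1) and 5 sugar and lipid hydrolases or activators (Hexa, Gla, Psap, Grn and Lipa). It also holds 6 membrane proteins (Lamp1, Lamp2, Cd63, Cd68, Mcoln1 and Gpr137b), both cholesterol exporters (Npc1 and Npc2), the regulator Tfeb and the fusion GTPase Rab7. On the uptake side stand 3 receptor kinases (Mertk, Axl and Tyro3), their ligands Gas6 and Pros1, and the integrin route of Itgav, Itgb5 and the bridging protein Mfge8.

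Levels were measured by droplet single-cell RNA sequencing (10x Genomics) of the retinal pigment epithelium (RPE), the pigmented sheet that faces the photoreceptors, together with the choroid, its vascular bed. The 4 libraries came from wild-type mice at 1 month, Vldlr-/- mice at 1 month, wild-type mice at 2 months and Vldlr-/- mice at 2 months, with 1 library per group. Vldlr-/- mice are knockouts of the very low density lipoprotein receptor, used as a model of vessels that grow from the retina towards the RPE. The strain background, sex and number of animals behind a library are not given in the sources used here.

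An RPE cell takes up the shed tips of photoreceptor outer segments every day for life. Integrin αvβ5, with MFG-E8 as a bridge, holds the particle at the cell surface, and the receptor kinase MERTK, engaged by GAS6 or protein S, triggers its engulfment. The phagosome then fuses with lysosomes, where cathepsins digest rhodopsin and other proteins and lipases, glycosidases and saposins break down the membranes. Tissue macrophages use the same organelle for dead cells and debris, which makes them the natural comparison within the same suspension.

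TFEB and related factors drive many lysosomal genes through CACGTG in their promoters. RefSeq promoters of GRCm38.p6, each spanning 250 bases before to 50 after a start site, were matched to 29 of the 32 genes (35 promoters). Ctsb, Npc1 and Gpr137b were not matched. CACGTG, which reads the same on both strands, lay in 7 of the 35 promoters (20%), those of Ctsa, Ctsd, Ctsl, Gla, Lamp1, Lgmn and Mcoln1. Of all 32851 promoters of that length, 7.15% held it, and of 124 promoters of 7 lists of other lysosome and engulfment genes 22.6% did. The longer TCACGTGA, which contains the core, lay in 11.4% of the promoters of the set and 0.974% of all promoters. A still longer palindrome, with a further base on each side, was also searched for. It lay in 0% of the promoters of the set, 0.326% of all promoters and 4.84% of those of the 7 lists. Stretches upstream of the gene are shown for 3 genes with the core and 2 without it, because Lamp1, Ctsd and Ctss recur in the macrophage comparison, Itgav in the RPE comparison, and Mcoln1, a low gene here, is a further example of the core. They run 5′ to 3′ on the gene's strand, up to 130 bases each, and capitals mark CACGTG.
Lamp1, chr8:13159031-13159160, plus strand: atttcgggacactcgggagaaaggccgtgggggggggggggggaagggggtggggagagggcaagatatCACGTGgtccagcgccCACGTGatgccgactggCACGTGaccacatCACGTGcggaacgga
Mcoln1, chr8:3500327-3500456, plus strand: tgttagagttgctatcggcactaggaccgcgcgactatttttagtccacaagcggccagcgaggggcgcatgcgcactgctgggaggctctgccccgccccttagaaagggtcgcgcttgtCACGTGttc
Ctsd, chr7:142388039-142388077, minus strand: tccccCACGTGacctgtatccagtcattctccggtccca
Ctss, chr3:95526656-95526785, plus strand: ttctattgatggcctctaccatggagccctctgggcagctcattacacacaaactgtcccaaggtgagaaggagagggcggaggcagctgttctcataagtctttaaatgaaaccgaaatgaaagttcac
Itgav, chr2:83724267-83724396, plus strand: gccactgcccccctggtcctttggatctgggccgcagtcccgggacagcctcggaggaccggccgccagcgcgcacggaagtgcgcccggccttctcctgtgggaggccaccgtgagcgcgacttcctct

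Lamp1 had the densest stretch, with 4 cores in the 130 bases before its start, at -61, -45, -28 and -15. Mcoln1 had cores at -71 and -45, of which the first is inside the stretch shown. Those of Ctsd lay at -245 and -98, and the first is shown. A match is a description of the letters and says nothing about binding in these cells.

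The libraries held 11194301 (wild type, 1 month), 12022513 (Vldlr-/-, 1 month), 23070271 (wild type, 2 months) and 16292472 UMIs (Vldlr-/-, 2 months; a UMI is 1 counted molecule). After filtering, 6529 cells were clustered without using any of the 32 genes. RPE-like cells numbered 220, 152, 1346 and 590 in that order, with 7 or 8 of 8 RPE markers detected in each library (Best1 was at 0 at 1 month). Macrophage-like cells numbered 30, 34, 57 and 55, with 13 of 13 macrophage markers detected in each. The median RPE-like cell carried 1997, 1755, 8079 and 9516 UMIs, so the 1-month values are the less precise ones. Vldlr itself, in counts scaled to a common library total (CPM), stood in RPE-like cells at 137 (wild type) against 12.0 (Vldlr-/-) at 1 month, and at 181 against 27.2 at 2 months. Age coincides with the version of the counting software, so the ages cannot be told apart from it and are not compared. A single barcode was shared between libraries, by the 2 Vldlr-/- libraries.

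RPE-like and macrophage-like cells expressed this gene set in different proportions. UMIs were summed over the cells of a class within a library and scaled to CPM, and the classes were compared over the 4 libraries with edgeR's quasi-likelihood test, with the library as a block and p-values adjusted (Benjamini-Hochberg) over 12495 genes. Of the 32 genes, 4 were higher in RPE-like cells (Itgav, Tyro3, Ctsk and Psap), 20 were higher in macrophage-like cells, and 8 did not pass at an adjusted p of 0.05. Over all genes tested 29.5% were higher in RPE-like and 21.2% in macrophage-like cells. The median log2 ratio of RPE-like to macrophage-like cells was -1.37 for the set and 0.33 for all genes. Without composition scaling (TMM) the median of all genes moved to -0.03, a shift of -0.37, and the set split into 3 genes higher in RPE-like and 22 higher in macrophage-like cells. Ratios below are to be read beside that shift. The libraries differ in genotype and age, so the spread of the class difference between them holds any effect of those on it. Below, 4 values in a row are CPM in wild type and Vldlr-/- at 1 month, then wild type and Vldlr-/- at 2 months, unless stated otherwise.

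**Figure D1:**
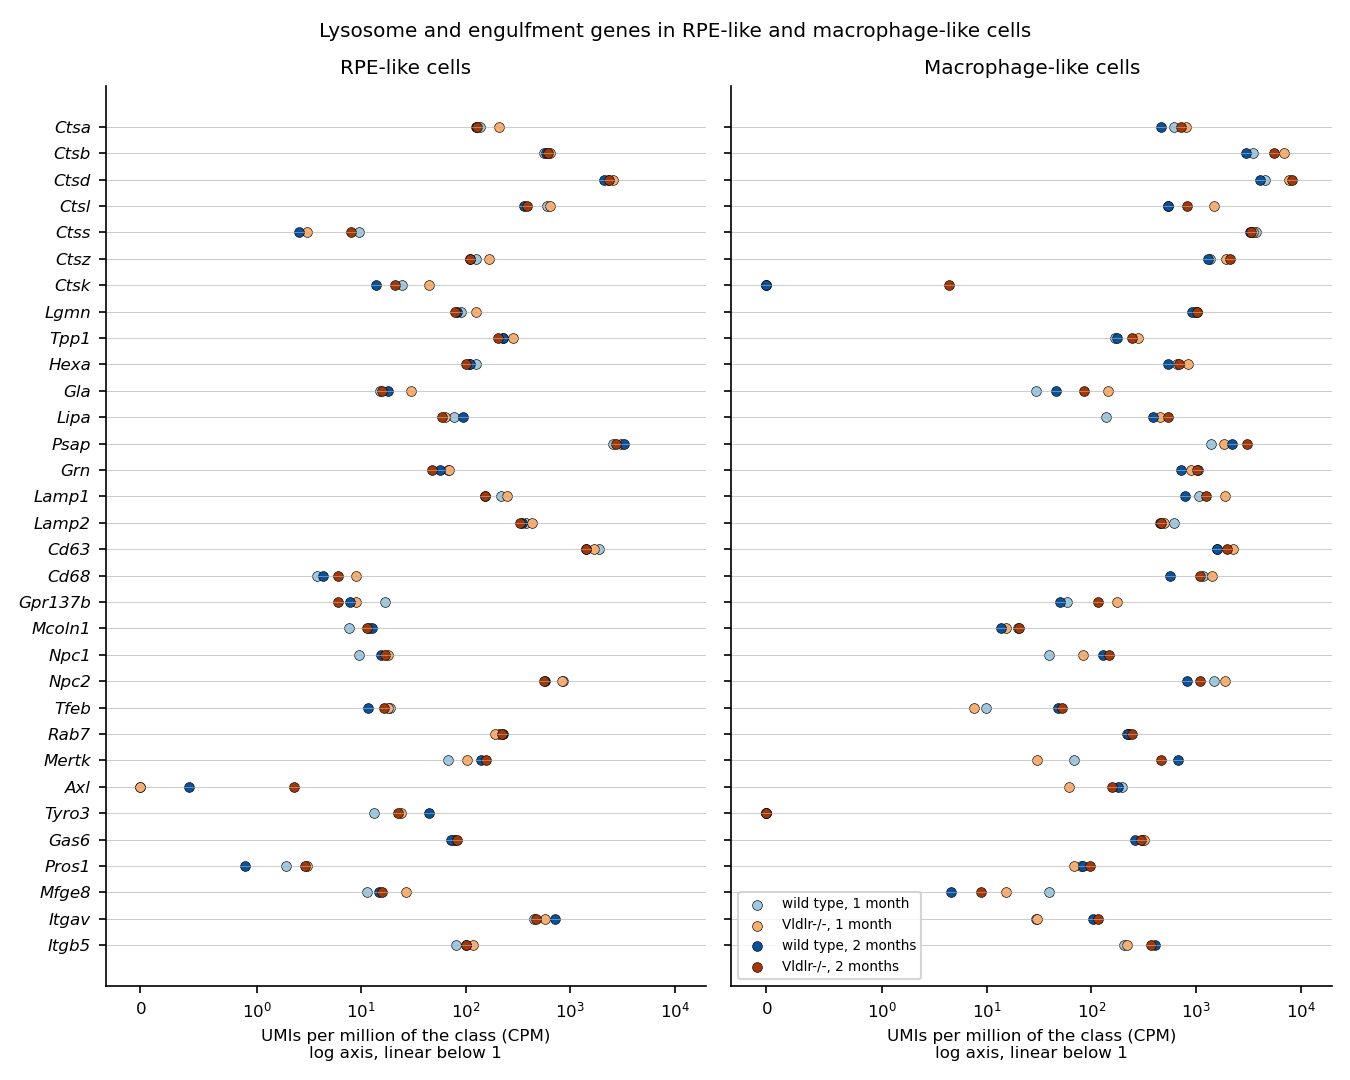
Levels of the 32 genes (CPM, log axis) in RPE-like and macrophage-like cells, 1 point per library and class, ordered by role. Itgav, Tyro3 and Ctsk lie to the right in RPE-like cells, while Ctss, Cd68, Axl and Pros1 lie near 0 there and at 60.6 CPM or more in macrophage-like cells.

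Among the proteases, Ctss separated the classes most. Ctss encodes cathepsin S, which trims antigens and their chaperone in immune cells (GRCm38 chromosome 3, 95526786 to 95556403, plus strand). It stood at 3716, 3537, 3284 and 3358 CPM in macrophage-like cells and at 9.49, 3.01, 2.56 and 7.94 CPM in RPE-like cells. The log2 ratio was -9.03 (SE 0.37, adjusted p = 3.30e-126, edgeR). Between 0.658% and 4.24% of RPE-like cells held a Ctss UMI, against 1.62% to 5.94% of fibroblast-like cells. At 2 months the median depths behind those shares were 8079 and 9516 UMIs per RPE-like cell and 8899 and 9092 UMIs per fibroblast-like cell. No Ctss UMI was counted in mural-like cells at that age. How much of the RPE-like Ctss count came from other cells was not tested. Ctsd, the main aspartic protease that digests outer segment protein in the RPE, was high in both classes. Its RPE-like levels were 2307, 2579, 2121 and 2337 CPM, and its macrophage-like levels were 4522, 7823, 4082 and 8306 CPM. Every macrophage-like value was above every RPE-like value (log2 ratio -0.91). Few macrophage-like cells held much of the Ctsd count, as given below. At 1 month the deepest cell held 21.2% (wild type) and 30.6% (Vldlr-/-) of all macrophage-like UMIs. The Ctsd call was lost without the Vldlr-/- 2-month library (adjusted p = 0.0511, edgeR).

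Ctsb, the abundant cysteine protease cathepsin B, differed more, at 568, 641, 584 and 617 CPM in RPE-like cells and 3529, 6982, 3035 and 5588 CPM in macrophage-like cells (log2 ratio -2.49). Ctsz, a carboxypeptidase, stood at 109 to 169 CPM in RPE-like cells against 1314 to 2120. Lgmn, the asparaginyl protease that activates other cathepsins, stood at 78.6 to 126 CPM against 917 to 1012. The groups of libraries did not overlap for any of these genes. Ctsa, which protects other lysosomal enzymes, was lower too (log2 ratio -1.71). Ctsl did not pass (log2 ratio -0.29, SE 0.33), and its levels overlapped between the classes. Tpp1, the peptidase lost in a childhood neuronal storage disease, did not pass either, at 204 to 286 CPM in RPE-like and 167 to 280 CPM in macrophage-like cells. Ctsk, the collagen-cleaving cathepsin K, went the other way. It stood at 24.7, 45.2, 13.8 and 21.2 CPM in RPE-like cells and was at 0 in 3 of the 4 macrophage-like sums, with 3 UMIs in the fourth. The log2 ratio was 3.65 (SE 0.68, adjusted p = 3.90e-07, edgeR). Fibroblast-like cells had more Ctsk, at 89.8 to 250 CPM over the libraries.

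Psap was the hydrolase cofactor gene that was higher in RPE-like cells. It encodes prosaposin, whose saposins help enzymes degrade sphingolipids. Its levels were 2561, 3067, 3279 and 2720 CPM in RPE-like cells and 1406, 1871, 2219 and 3075 CPM in macrophage-like cells. RPE-like cells were higher in 3 of 4 libraries, and the ranges overlapped (log2 ratio 0.91, SE 0.25, adjusted p = 9.65e-04, edgeR). That call was lost without the library block (adjusted p = 0.0724) and without TMM (adjusted p = 0.108). The other 4 of this group were higher in macrophage-like cells. Grn (progranulin) stood at 47.3 to 69.2 CPM in RPE-like cells against 725 to 1042 CPM (log2 ratio -3.54). Hexa, a subunit of beta-hexosaminidase, stood at 102 to 125 CPM against 541 to 841 CPM. Lipa (lysosomal acid lipase) had a log2 ratio of -1.95 and Gla (alpha-galactosidase A) one of -1.54. The ranges of Gla overlapped (30.1 CPM in 1 RPE-like sum against 29.5 CPM in 1 macrophage-like sum), and its call was lost with cells thinned to 1000 UMIs (adjusted p = 0.648, edgeR).

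The membrane proteins split evenly between genes that differed and genes that did not. Cd68, a glycoprotein used as a macrophage marker, stood at 1160, 1431, 563 and 1097 CPM in macrophage-like cells and at 3.80, 9.03, 4.36 and 6.05 CPM in RPE-like cells. Lamp1, the most used lysosome marker, was at 152 to 250 CPM in RPE-like and 785 to 1893 CPM in macrophage-like cells (log2 ratio -2.24). Gpr137b, a lysosomal membrane protein, had a log2 ratio of -3.00. Lamp2, needed for fusion of phagosomes and autophagosomes, did not pass, at 376, 430, 346 and 330 CPM in RPE-like and 609, 492, 454 and 463 CPM in macrophage-like cells. The tetraspanin Cd63 did not pass (log2 ratio 0.22, -0.21 without TMM), and neither did the calcium channel Mcoln1 (-0.25). Of the cholesterol exporters, Npc1 was higher in macrophage-like cells (log2 ratio -2.55) and Npc2 did not pass (-0.42, adjusted p = 0.133, edgeR). Tfeb was low in both classes, at 11.7 to 19.0 CPM in RPE-like and 7.57 to 52.5 CPM in macrophage-like cells. Its call (log2 ratio -1.07, adjusted p = 0.00941, edgeR) was lost without the block (adjusted p = 0.124) and with DESeq2 (0.520). Rab7, the GTPase of late endosomes, did not pass, at 193 to 227 CPM against 220 to 247 CPM (log2 ratio 0.31, -0.11 without TMM).

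The receptor kinases were divided between the classes. Tyro3 (chromosome 2, 119797733 to 119818104, plus strand) had 7, 8, 648 and 178 UMIs in RPE-like cells, or 13.3, 24.1, 44.8 and 22.4 CPM. No Tyro3 UMI was counted in any macrophage-like cell. Set against 3 counts per library, RPE-like cells had at least 6.55-fold more in wild type and at least 5.13-fold more in Vldlr-/- at 2 months. At 1 month depth allowed no such bound in wild type. Axl (chromosome 7, 25757273 to 25788705, minus strand) was the reverse. Its levels were 197, 60.6, 178 and 158 CPM in macrophage-like cells, and 0, 0, 0.415 and 2.27 CPM in RPE-like cells (log2 ratio -6.94, SE 0.43, adjusted p = 1.59e-55, edgeR). Mertk was in both, at 68.3, 102, 140 and 156 CPM in RPE-like and 68.8, 30.3, 668 and 460 CPM in macrophage-like cells. The macrophage-like sums were high in both 2-month libraries and low in both 1-month ones, where they rest on 7 and 4 UMIs. The Mertk call (log2 ratio -0.74, SE 0.30, adjusted p = 0.0293, edgeR) was lost without the block (adjusted p = 0.166), with DESeq2 (0.676), without the wild-type 2-month library (0.929) and without the Vldlr-/- 2-month library (0.583).

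Both ligands of these receptors were lower in RPE-like cells. Gas6 stood at 79.7, 75.3, 72.5 and 83.1 CPM there and at 305, 318, 262 and 301 CPM in macrophage-like cells. Pros1 (protein S) stood at 1.90, 3.01, 0.899 and 2.90 CPM, near 0, against 68.2 to 96.3 CPM. On the integrin route, Itgav (the αv chain, chromosome 2, 83724397 to 83806916, plus strand) was the gene of the set with the smallest p on the RPE side. It stood at 448, 572, 710 and 468 CPM in RPE-like cells and 29.5, 30.3, 103 and 117 CPM in macrophage-like cells (log2 ratio 3.23, SE 0.30, adjusted p = 2.10e-26, edgeR). Itgb5, its β5 partner, was higher in macrophage-like cells (log2 ratio -1.23), at 206 to 408 against 81.6 to 117 CPM. Mfge8 was low in both classes (11.4 to 27.1 and 4.56 to 39.3 CPM) and did not pass.

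Other genes of the lysosome and of engulfment, 132 in 7 lists, are given beside the set as log2 ratios of RPE-like to macrophage-like cells. Of 16 tested subunits of the proton pump (V-ATPase) that acidifies the lysosome, 9 were higher in RPE-like cells, 1 in macrophage-like cells, and the list's median log2 ratio was 0.61. Atp6v1e1 (2.35) and Atp6v0a1 (1.22) led on the RPE side, and Atp6v0d2 (-10.59) was the subunit on the other. Of 33 other lysosomal enzymes, 5 were higher in RPE-like cells, among them Smpd1 (3.74, acid sphingomyelinase) and Ids (2.14). On the macrophage side were 16, led by Ctsh (-7.67) and Pla2g15 (-3.42). Of 20 membrane and transport genes 4 and 6 passed in the 2 directions, led by Laptm4b (2.88) and Laptm5 (-8.42). Among 17 regulators and sorting receptors these counts were 4 and 5, with Igf2r, the mannose 6-phosphate receptor, at 3.13 and Nagpa at -3.72.

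Engulfment receptors and cytoskeletal genes had 7 of 23 higher in RPE-like cells and 8 in macrophage-like cells, beside the 29.5% and 21.2% of all genes. Ezr (4.43, the microvillar linker ezrin) and Rab27a (4.25) stood on the RPE side. Cd36 (-9.43) and Vav3 (-9.21) stood on the other. Of 14 genes of LC3-associated phagocytosis and autophagy, 4 and 6 passed, led by Map1lc3a (2.91) and Uvrag (-2.60). Of 4 tested cathepsin inhibitors, Cst6 (9.28) and Cst3 (2.35) were higher in RPE-like cells, and Cst7 (-10.53) and Cstb (-1.07) in macrophage-like cells.

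Across all the cell classes with at least 30 cells in a library, the uptake genes had distinct places. Itgav was highest in RPE-like cells in 4 of 4 libraries. An unnamed cluster led by Pmel came next, with 438 CPM in wild type at 2 months beside 710 CPM in RPE-like cells. It had enough cells in that library only. The other classes had medians over libraries of at most 113 CPM. Itgav was counted in 52.3%, 48.0%, 90.0% and 78.0% of RPE-like cells, against 0.613% to 2.63% of rod-like cells, the class with the lowest median. Cells of 1000 UMIs or more were also thinned to 1000 UMIs, so that depth is equal, and the others were left out. The shares were then 28%, 30.3%, 50.8% and 32.6% of 186, 109, 1307 and 546 RPE-like cells. Those of rod-like cells were 0% to 1.00%. Median depths of rod-like cells were 1924 to 2931 UMIs. Mertk had a median over libraries of 264 CPM in macrophage-like cells (30.3 to 668), 183 in endothelial-like (145 to 222), 163 in mural-like (136 to 190), 121 in RPE-like (68.3 to 156) and 56.9 in fibroblast-like cells (27.6 to 86.9). Endothelial-like and mural-like cells had values at 2 months only. At that age macrophage-like cells (460 and 668 CPM) lay above endothelial-like ones, and the ranges of endothelial-like, mural-like and RPE-like cells overlapped one with the next, while fibroblast-like cells (85.4 and 86.9 CPM) lay below. At 1 month macrophage-like (68.8 and 30.3 CPM) and RPE-like levels overlapped. Axl was at 151 to 224 CPM in fibroblast-like cells and 120 to 176 CPM in mural-like cells, both far above its RPE-like range. Gas6 was at 176 to 255 CPM in fibroblast-like cells, and Pros1 at 89.4 to 90.4 CPM in endothelial-like and 74.1 to 98.5 CPM in fibroblast-like cells. Mfge8 was at 350 to 424 CPM in endothelial-like cells, 292 to 373 CPM in mural-like and 191 to 264 CPM in rod-like cells.

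**Figure D2:**
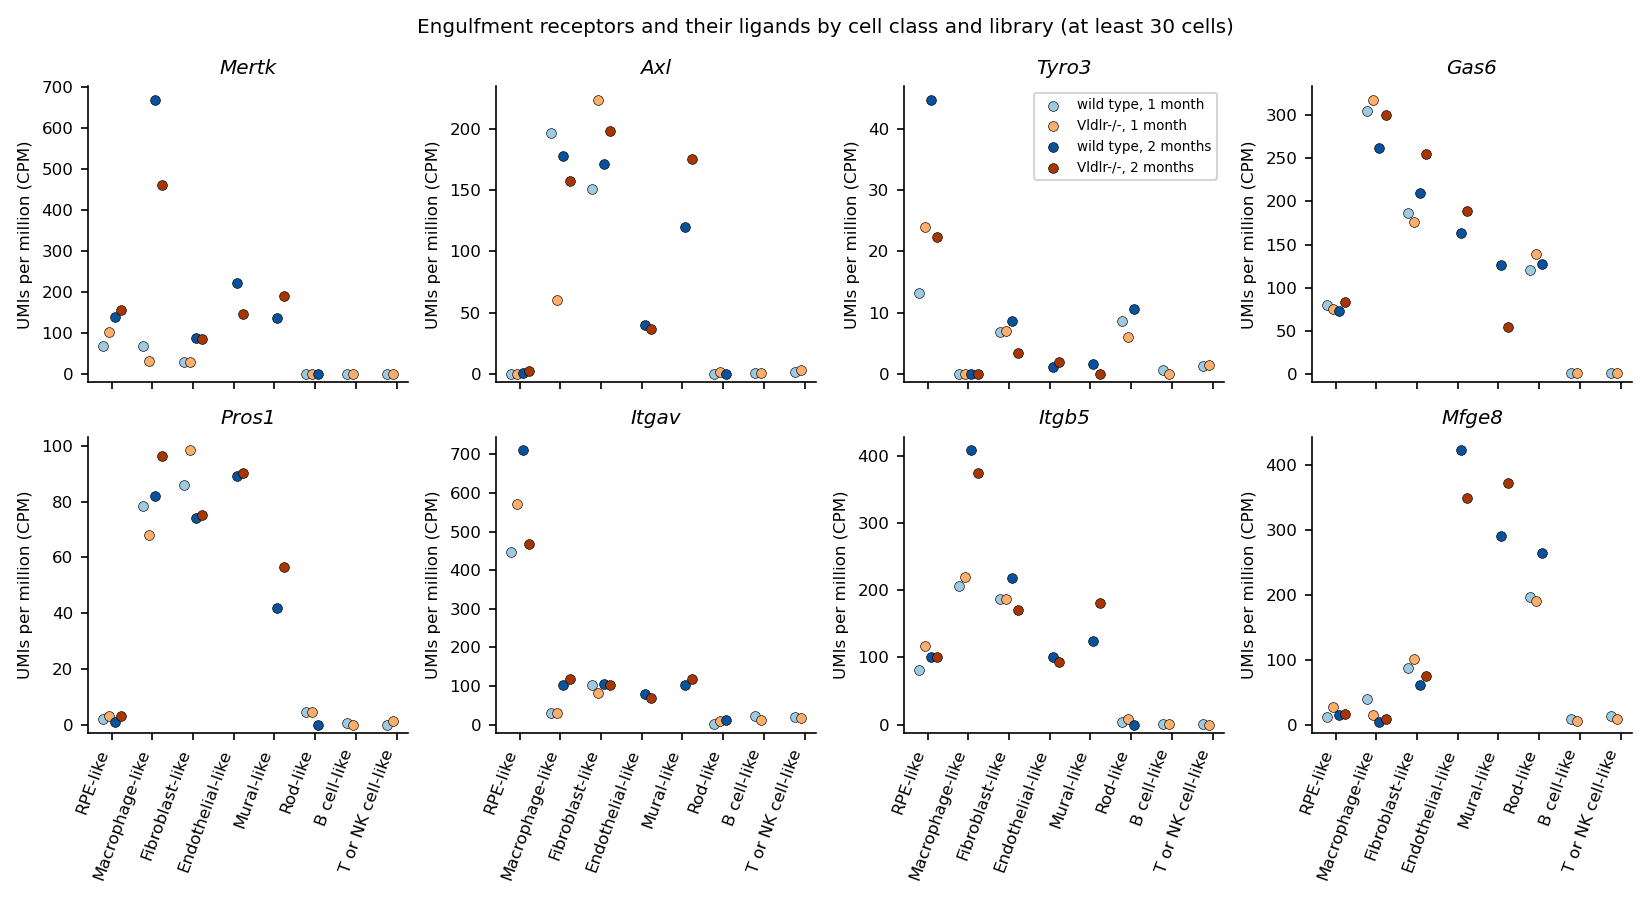
Levels of the uptake genes (CPM) by cell class, 1 point per library with at least 30 cells of the class. Itgav is highest in RPE-like cells, Axl is near 0 there, and Mfge8 is highest in endothelial-like or mural-like cells at 2 months and in rod-like cells at 1 month, when the former have no value.

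The Vldlr-/- and wild-type libraries were then compared within RPE-like cells, without a test, since each genotype and age is 1 library. A gene counted as measured with at least 30 UMIs over the libraries compared, and as apart at 2-fold or more. Intervals (95%, exact) cover counting error only. At 1 month 20 of the 32 genes were measured and none was 2-fold apart, beside 3.57% (higher in Vldlr-/-) and 2.49% (lower) of all 3333 measured genes. At 2 months 31 were measured. Ctss and Pros1 were at least 2-fold higher in Vldlr-/- and none was 2-fold lower, beside 3.13% and 1.01% of 11769 genes. The median log2 ratio of Vldlr-/- to wild type was 0.19 (all genes 0.02) at 1 month and -0.01 (all genes 0.07) at 2 months. Of the 20 genes measured at both ages, 5 were higher in Vldlr-/- at both (Ctsa, Ctsb, Ctsd, Ctsl and Mertk), 5 were lower at both and 10 changed sides. The share of all genes on the same side at both ages was not counted. These ratios are of sums over all RPE-like cells, and the sides within clusters are given below.

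**Figure D3:**
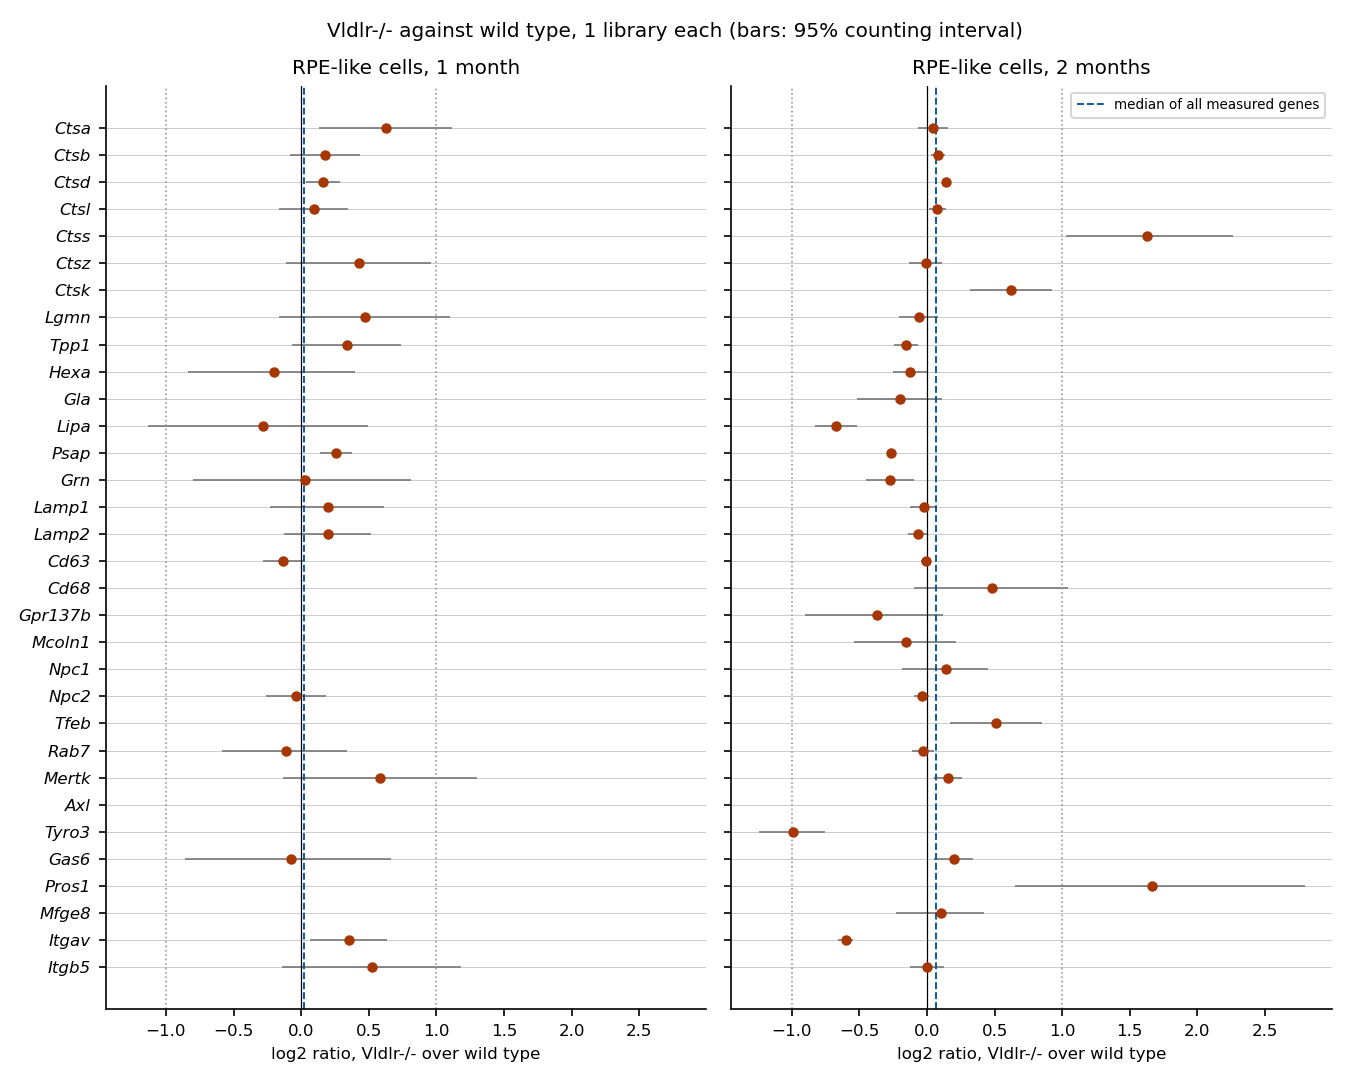
Log2 ratio of Vldlr-/- to wild type in RPE-like cells for each measured gene at 1 and 2 months, with 95% counting intervals. Most genes lie close to 0, and Tyro3 (-0.99), Lipa (-0.67) and Itgav (-0.60) are the lowest at 2 months.

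Both genes past 2-fold at 2 months rested on at most 100 UMIs. Ctss had 37 UMIs in wild type and 63 in Vldlr-/- (2.56 and 7.94 CPM, log2 ratio 1.63, interval 1.03 to 2.26), and 0.92 without the deepest cell of each library. A Ctss UMI was found in 1.19% and 4.24% of RPE-like cells, against 5.88% and 5.03% of fibroblast-like cells of the same libraries. Whether RPE-like cells express Ctss is not read from these values. Pros1 had 13 and 23 UMIs (log2 ratio 1.67, interval 0.65 to 2.79). Summed markers of macrophages in RPE-like cells were nearly level between the genotypes, at 184 and 194 CPM, and those of rods were at 50.6 and 32.2 CPM. Their part in these values was not tested.

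Tyro3, Lipa and Itgav stood lowest in the Vldlr-/- library at 2 months, 2 genes of uptake and 1 of lipid breakdown. Tyro3 had 648 UMIs (44.8 CPM) in the wild-type and 178 UMIs (22.4 CPM) in the Vldlr-/- library, a log2 ratio of -0.99 (-1.25 to -0.76). It was counted in 31.1% and 20.2% of RPE-like cells, in 5.59% and 1.28% after thinning to 1000 UMIs, and in 8.82% and 3.91% of fibroblast-like cells. At 1 month Tyro3 had 7 and 8 UMIs, too few to measure. Lipa was at 93.9 and 58.9 CPM (log2 ratio -0.67, -0.83 to -0.52), and at 77.8 and 63.2 CPM at 1 month (-0.28, -1.13 to 0.49). Itgav was at 710 CPM (10270 UMIs) and 468 CPM (3712 UMIs), a log2 ratio of -0.60 (-0.66 to -0.55). At 1 month Itgav lay the other way, at 448 and 572 CPM (0.35, 0.07 to 0.63), with 50 of its 190 Vldlr-/- UMIs in 4 cells. In the Mt3-led cluster described below, which held most RPE-like cells of that age, the Itgav ratio was 0.06 (-0.29 to 0.40).

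Psap also lay on opposite sides at the ages in the sums. It was at 2561 and 3067 CPM at 1 month (log2 ratio 0.26, 0.14 to 0.38) and at 3279 and 2720 CPM at 2 months (-0.27, -0.29 to -0.25). At 1 month 118 of its 1019 Vldlr-/- UMIs were in 1 cell, and the Psap ratio in the Mt3-led cluster was 0.02 (-0.13 to 0.17). Genes above wild type at 2 months included Ctsk (13.8 and 21.2 CPM, log2 ratio 0.62, 0.32 to 0.93) and Tfeb (11.7 and 16.6 CPM, 0.51, 0.17 to 0.85). With each cell weighted equally, Ctsk stood at 0.11 and Tfeb at 0.20. Mertk was at 140 and 156 CPM (0.16, 0.05 to 0.26), and at 68.3 and 102 CPM at 1 month (0.58, -0.14 to 1.30). Within clusters of RPE-like cells Mertk did not keep that side, as given below.

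In the sums over all RPE-like cells, most degradation genes lay close to their wild-type level. At 2 months Ctsd had a log2 ratio of 0.14, Ctsb of 0.08, Ctsl of 0.08, Lamp1 of -0.02, Cd63 of -0.01, Npc2 of -0.04 and Rab7 of -0.03. Within the clusters described below, the sides differed. Ctsd ran from -0.71 (Mt3-led) to 0.82 (Ankfn1-led), and Ctsb from -0.60 to 0.39 in the same clusters. Ctsl ran from -0.44 (Mt3-led) to 0.24 (Ttr-led), and Ctsa from -0.83 (Mt3-led) to 0.31 (Enpp2-led). All 5 hydrolases or activators were lower in Vldlr-/- at 2 months, from Hexa at -0.13 to Lipa at -0.67, with a median of -0.27. In the Ankfn1-led cluster of RPE-like cells, Hexa (0.09), Grn (0.15), Psap (0.01) and Gla (0.25) were not lower, and Gla was also above 0 in the Ttr-led (0.04) and Enpp2-led (0.09) clusters. At 1 month 4 of them were measured, 2 on each side. Ctsa was the gene past 1.5-fold at 1 month, at 137 and 211 CPM (0.62, 0.13 to 1.12), where 13.5% of all measured genes were that much higher and 9.12% that much lower. At 2 months it was level (125 and 129 CPM), and 3 genes of the set were 1.5-fold higher and 3 lower, beside 9.75% and 3.04% of all. Over the lists of other genes, 77 were measured at 1 month (median log2 ratio 0.05) and 120 at 2 months (0.00), and none lay 1.5-fold or more to the same side at 1 and at 2 months.

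RPE-like cells came in 5 clusters, and the mix differed between the libraries. A cluster led by Mt3 (a metallothionein gene) made up 81.4% (wild type) and 84.9% (Vldlr-/-) of these cells at 1 month, but 12.0% and 20.9% at 2 months. The other clusters at 2 months were led by Ttr, Enpp2, Gphn and Ankfn1. The Ankfn1-led one held 8.32% of wild-type and 18.0% of Vldlr-/- RPE-like cells. Uptake and degradation genes were uneven over these clusters within each genotype. In wild type at 2 months, Psap ran from 1999 CPM in the Ankfn1-led to 4889 CPM in the Enpp2-led cluster, and Itgav from 386 CPM to 1130 CPM in the same clusters. Mertk ran from 65.0 CPM in the Ttr-led to 238 CPM in the Ankfn1-led cluster.

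**Figure D4:**
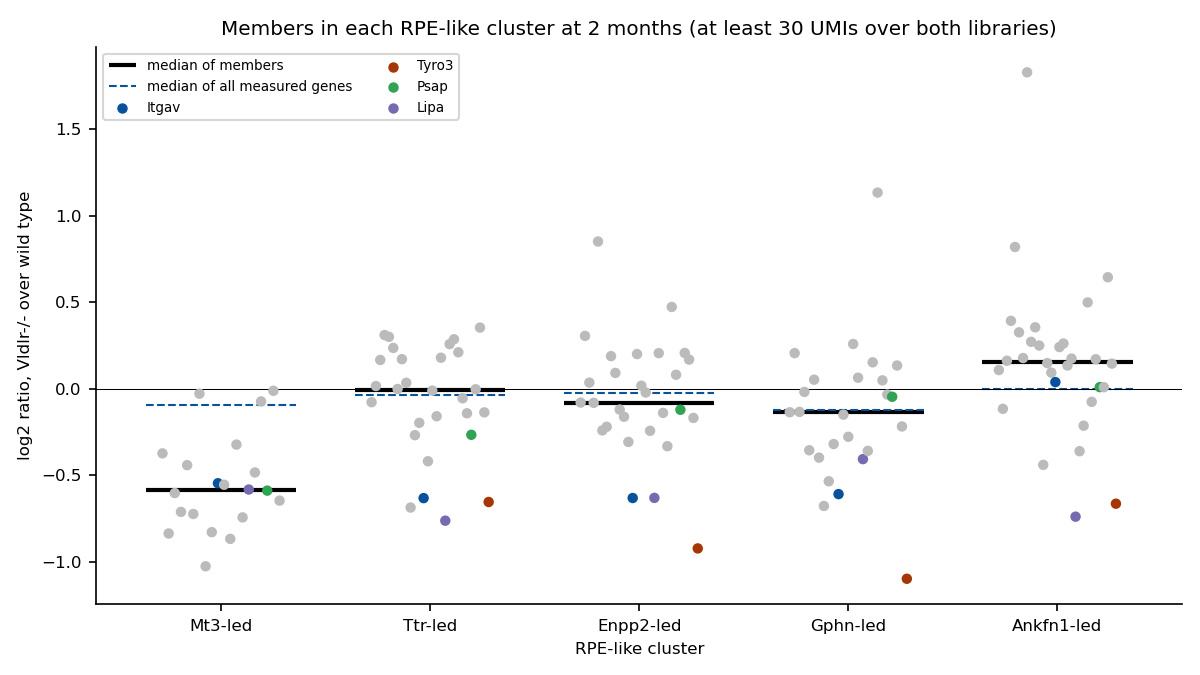
Log2 ratio of Vldlr-/- to wild type by RPE-like cluster at 2 months, with a point for each measured gene of the set. Lines mark the medians of the set and of all measured genes, and Itgav, Tyro3, Psap and Lipa are coloured. Itgav is lower in Vldlr-/- in every cluster except the Ankfn1-led one.

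Itgav was lower in Vldlr-/- within 4 of the 5 clusters, with log2 ratios of -0.54 (Mt3-led), -0.63 (Ttr-led), -0.63 (Enpp2-led) and -0.61 (Gphn-led), and 0.04 in the Ankfn1-led cluster. With the mix of clusters held fixed the Itgav ratio was -0.49, and with cells thinned to 1000 UMIs -0.92. In the RPE-like cells with at least 1000 CPM of Malat1, a nuclear RNA, the Itgav ratio was 0.02, and in the others -0.59. Over the libraries, the median Malat1 level was 31599.6 CPM in Ankfn1-led cells and 0 to 78.5 CPM in the other RPE-like clusters. Values of the Ankfn1-led cluster and of Malat1-rich cells therefore share many cells and are not separate checks. Malat1-poor cells were 88.0% of wild-type and 71.5% of Vldlr-/- RPE-like cells at 2 months. Tyro3 was lower in all 4 clusters where it was measured (-0.65 to -1.10), and Lipa in all 5 (-0.41 to -0.76). Mertk was lower in the Mt3-led (-0.48, -1.54 to 0.39), Enpp2-led (-0.14, -0.35 to 0.07) and Ankfn1-led (-0.21, -0.36 to -0.06) clusters, and higher in the Ttr-led (0.29, -0.03 to 0.59) and Gphn-led (0.15, -0.20 to 0.49) ones. With the mix of clusters held fixed the 2-month Mertk ratio was -0.09, in Malat1-rich cells -0.19 and with thinning -0.15. At 1 month Mertk was at -0.07 (-1.15 to 0.91) in the Mt3-led cluster. Psap was -0.59 in the Mt3-led cluster and between -0.27 and 0.01 in the others, and -0.12 with the mix held fixed. In the Mt3-led cluster at 2 months all 20 measured genes of the set were lower in Vldlr-/- (median -0.58, all genes -0.09). Cells of that cluster carried 4179 UMIs in wild type and 2267 in Vldlr-/- on average. Its summed macrophage markers were at 705 and 355 CPM, and their part in this was not tested. At 1 month the same cluster had a median of 0.07 (all genes -0.04). In the Ankfn1-led cluster at 2 months, 7 of 30 measured genes were lower (median 0.16, all genes -0.0008). In the Ttr-led, Enpp2-led and Gphn-led clusters these were 16 of 28, 16 of 28 and 17 of 25 (medians -0.01, -0.08 and -0.135). The share of all measured genes that were lower in a cluster was not counted.

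Most degradation genes were higher in the macrophage-like cells of both Vldlr-/- libraries. Of the 20 genes measured at 1 month, 15 were higher in Vldlr-/-, and of the 28 measured at 2 months, 25 were. The medians were 0.36 (all genes 0.10) and 0.38 (all genes 0.03). At least 2-fold higher were Ctsl and Lipa at 1 month, beside 9.75% of 1046 measured genes, and Ctsd and Gpr137b at 2 months, beside 3.82% of 5162. No gene of the set was 2-fold lower at either age (9.94% and 3.27% of all). At 1.5-fold, 6 and 9 were higher, beside 22.3% and 12.8% of all measured genes, and none was that much lower, beside 18.1% and 11.4%. Of the 20 measured at both ages 14 were higher at both, none was lower at both, and Ctsb, Ctsd, Ctsl and Lamp1 were at least 1.5-fold higher at both. The share of all measured genes that were higher at an age, or at both ages, was not counted.

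**Figure D5:**
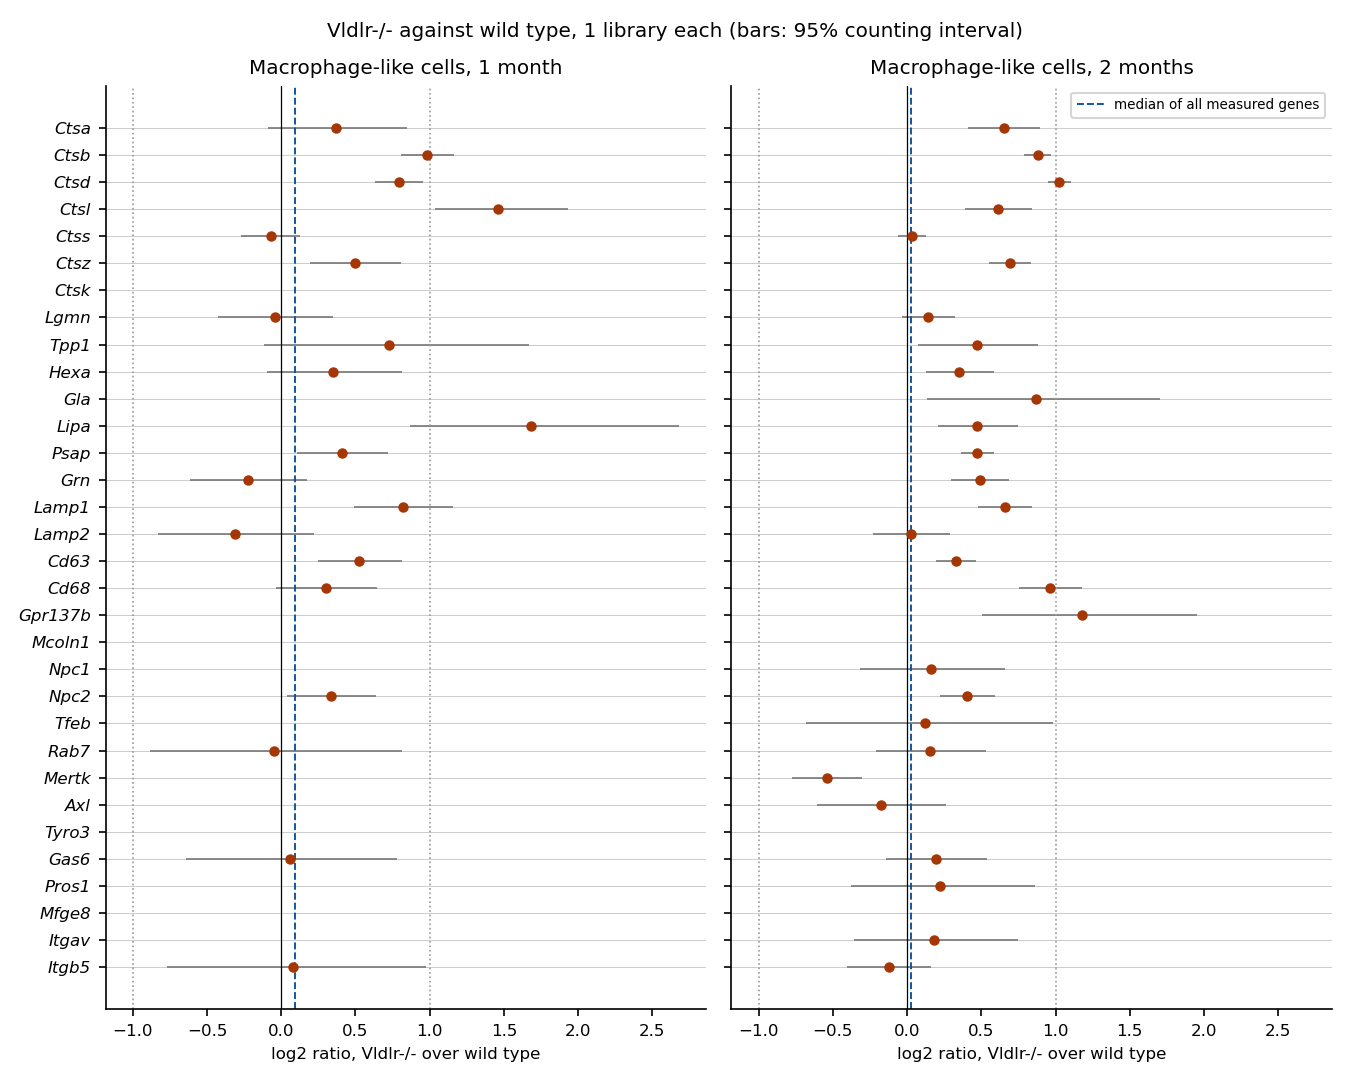
Log2 ratio of Vldlr-/- to wild type in macrophage-like cells for each measured gene at 1 and 2 months, with 95% counting intervals. Ctsb, Ctsd, Ctsl and Lamp1 lie to the right of 0 at both ages, Ctss lies at 0, and Mertk lies to the left at 2 months.

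Among the proteases, Ctsd was at 4522 and 7823 CPM at 1 month (460 and 1033 UMIs, log2 ratio 0.79, 0.63 to 0.95). At 2 months it was at 4082 and 8306 CPM (1790 and 5693 UMIs, 1.03, 0.95 to 1.10). Few cells carried much of it. The 4 highest cells held 374 of 460 and 602 of 1033 Ctsd UMIs at 1 month, and 1007 of 1790 and 2813 of 5693 at 2 months. Ctsb was at 3529 and 6982 CPM (0.98, 0.81 to 1.17) and at 3035 and 5588 CPM (0.88, 0.79 to 0.97). Ctsl was at 541 and 1499 CPM (1.46, 1.03 to 1.93) and at 536 and 820 CPM (0.61, 0.39 to 0.84). Ctss was level at both ages, at 3716 and 3537 CPM (-0.07) and 3284 and 3358 CPM (0.03), and so was Lgmn (-0.04 and 0.14).

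The same direction was seen for most hydrolases and membrane proteins at 2 months. Cd68 was at 563 and 1097 CPM (log2 ratio 0.96, 0.75 to 1.18), after 1160 and 1431 CPM at 1 month (0.30, -0.04 to 0.65). Lamp1 was at 1071 and 1893 CPM (0.82) and 785 and 1239 CPM (0.66), while Lamp2 was at -0.31 and 0.03. Gpr137b had 22 and 79 UMIs at 2 months (1.18, 0.50 to 1.95). Psap was at 0.41 and 0.47, Ctsz at 0.50 and 0.69, Ctsa at 0.37 and 0.65 and Cd63 at 0.52 and 0.33. Lipa was at 1.69 at 1 month, where 35 of its 60 UMIs in Vldlr-/- were in 1 cell, and at 0.47 at 2 months. Grn changed sides, at -0.22 and 0.49.

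Among the receptors of macrophage-like cells at 2 months, Mertk, Axl and Itgb5 stood lower in Vldlr-/-, and Itgav stood higher. Mertk then had 668 CPM in wild-type against 460 CPM in Vldlr-/- cells (log2 ratio -0.54, -0.77 to -0.31). Axl was at 178 and 158 CPM (-0.18, -0.61 to 0.26) and Itgb5 at 408 and 375 CPM (-0.12, -0.40 to 0.16). Itgav was at 103 and 117 CPM (0.18, -0.36 to 0.75). Of these intervals, that of Mertk excluded 0. Gas6 was at 0.06 and 0.19. None of the receptor kinases reached 30 UMIs at 1 month.

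The classes compared are small. At 1 month the deepest cell held 21.2% of wild-type and 30.6% of Vldlr-/- macrophage-like UMIs, and at 2 months 5.87% and 6.72%. Without it, 17 of 20 genes were higher at 1 month (median 0.39) and the log2 ratios were 0.70 for Ctsb, 0.59 for Ctsd and 0.62 for Lipa. The median macrophage-like cell gave 17800 CPM of its UMIs to the 32 genes in wild type and 18710 in Vldlr-/- at 1 month, and 17080 and 25240 at 2 months. The upper quartiles were 27250 and 59330, and 26950 and 33720. With cells weighted equally, 17 of 20 and 19 of 28 genes were higher, with medians of 0.57 and 0.30. At 2 months Ctsd then stood at 0.63, Ctsb at 0.61, Lamp1 at 0.27 and Cd68 at 0.87. Summed RPE markers in macrophage-like cells were 187 and 37.9 CPM, and 2670 and 486 CPM, lower in Vldlr-/- at both ages. Malat1-poor cells were 73.3% and 76.5% at 1 month and 17.5% and 7.27% at 2 months. Their part in the result was not tested. Among Malat1-rich cells alone, which were most of the macrophage-like cells at 2 months, the median at that age was 0.38. No such value was made for 1 month.

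Genes with CACGTG in the promoter, the Lamp1 and Ctsd stretches printed above among them, can be set beside the others in macrophage-like cells. At 2 months 6 of 6 measured genes with it were higher in Vldlr-/- (median 0.65, range 0.14 to 1.03), and 16 of 19 without it (median 0.22, range -0.54 to 0.96). At 1 month these were 4 of 5 (median 0.79) and 10 of 14 (median 0.32). The ranges overlapped at both ages. Ctsb, Npc1 and Gpr137b, with no matched promoter, are in neither group. All were higher in Vldlr-/- at 2 months, and Gpr137b (1.18) was the highest gene of the set there. A link to the motif was not tested. Ctss, with no CACGTG in its window, was level, and Lgmn, with a core at -49, was at -0.04 and 0.14.

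Other lysosome genes in macrophage-like cells were set beside these by list, where the median of all genes was 0.10 at 1 month and 0.03 at 2 months. Of the V-ATPase subunits, all 12 measured at 1 month were higher in Vldlr-/- (median 0.84), and 14 of 16 at 2 months (median 0.32). Atp6v1g1 was at 393 and 1121 CPM and at 253 and 521 CPM (log2 ratio 1.04 at 2 months), whereas Atp6v0d2 was at 212 and 101 CPM at 2 months (-1.07). Of the regulators and sorting receptors, 2 of 2 were higher at 1 month (median 0.74) and 13 of 16 at 2 months (median 0.33), where 5 were 1.5-fold higher and none that much lower. Of the other lysosomal enzymes, 4 of 12 were higher at 1 month (median -0.43) and 17 of 28 at 2 months (median 0.20), where 9 were 1.5-fold higher and 1 that much lower. Engulfment genes were split, with 4 of 8 and 10 of 18 higher. Cd36, a scavenger receptor, was at -2.53 at 1 month and 0.81 at 2 months. The cathepsin inhibitor Cst7 was at -0.11 and 1.58. Atp6v1g1, Cd36 and this gene were chosen after their values were seen.

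In fibroblast-like cells 24 of 32 measured genes were higher in Vldlr-/- at 1 month (median log2 ratio 0.07, all genes 0.03) and 23 of 30 at 2 months (0.15, all genes 0.01). Counting intervals excluded 0, on either side, for 12 and 10 genes of the set. The share of all measured genes that were higher was not counted in these cells. Ctss was 2-fold apart at both ages there in opposite directions (-2.24 and 1.23). At 2 months 4 cells held 55 of 59 wild-type and 199 of 204 Vldlr-/- Ctss UMIs. Gpr137b was lower at 2 months (-1.21), with 40 of its 60 wild-type UMIs in 1 cell. All genes past 2-fold were 1.91% higher and 1.6% lower at 1 month, and 2.55% and 1.29% at 2 months. At that age endothelial-like cells had 26 genes measured with a median of -0.05 and none 2-fold apart, beside 3.15% and 2.05% of all genes. Mertk was the lowest of them in Vldlr-/-, at -0.62 (-0.90 to -0.34). Mural-like cells at 2 months had 23 measured and a median of 0.09. In that class Gas6 was lower (-1.20), with 61 of its 79 wild-type UMIs in 4 cells, as was Gpr137b, with 114 UMIs in wild type (63 of them in 1 cell) and 4 in Vldlr-/-. All genes past 2-fold there were 2.31% higher and 2.58% lower.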

How the data were processed

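The deposited values were raw UMI counts per gene and barcode, unnormalized whole numbers. The file headers name Cell Ranger 6.0.2 at 1 month and 7.0.1 at 2 months. Per the submitters' processing notes it was Cell Ranger 3.0 with Seurat 4.0 and mm9. No source used here says whether intronic reads were counted. Of 32285 gene identifiers, 32235 matched GENCODE M21 (GRCm38), the source of the gene coordinates. The genes and lists were chosen with earlier results of these data known.

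Kept were 6555 barcodes, those of 300 genes or more and a mitochondrial share of 30% or less. Scrublet marked 26 (0.397%), which were removed; at that rate it has not worked as a doublet filter. An alternative took out the 89 highest scores. Cells were scaled to 10000 counts. The 2000 variable genes, less those of the set and the lists (1989), gave 30 principal components, 15 neighbours and 29 Leiden clusters (resolution 1.0, scanpy 1.11.5, leidenalg 0.10.2, igraph 0.11.9). Clusters were named from marker lists, with core markers added after the clusters were seen, and 5 stayed unnamed. A different naming can move the values.

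Counts were summed per library and class (at least 30 cells) and scaled to CPM. Log2 ratios of Vldlr-/- to wild type had 0.5 counts added, and have no test because each group is 1 library. RPE-like and macrophage-like sums were compared with edgeR 4.0.16 (quasi-likelihood, library block, TMM, at least 30 UMIs over 8 sums, R 4.3.3), checked on simulated counts. The block pairs sums that come from the same library. DESeq2 1.42.0 was an alternative. With no statement of separate animals, p-values set the size of the class difference against its variation between these libraries only. All 32 genes are named. From the lists, the rule named 2 genes per direction with the largest class difference, and genes 1.5-fold apart at both ages in RPE-like cells. Scripts ran in Python 3.11.15 with scipy 1.17.1, numpy 2.4.6 and pandas 2.3.3.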

Additional observations from a re-analysis of the deposited data

Results flagged for a closer look

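In RPE-like cells, 2 genes lay on opposite sides of wild type at the 2 ages, with counting intervals that exclude 0 at each in the sums over all RPE-like cells. Psap had a log2 ratio of Vldlr-/- to wild type of 0.26 at 1 month and -0.27 at 2 months. Itgav stood at 0.35 and -0.60. The difference between the ages was not tested, each value rests on 1 library per genotype, and the ages also differ in counting software and in the mix of RPE-like clusters. In the Mt3-led cluster, which made up 81.4% and 84.9% of the 1-month cells, the ratios at that age were 0.02 (-0.13 to 0.17) for Psap and 0.06 (-0.29 to 0.40) for Itgav. With cells weighted equally the 1-month Psap ratio was 0.02, and in Malat1-rich RPE-like cells the 2-month Itgav ratio was 0.02.

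Signal also appeared in clusters that no comparison used. The unnamed cluster led by Lyz2 held Tfeb at 54.2 CPM in the Vldlr-/- 1-month library, above its RPE-like and macrophage-like levels there (18.1 and 7.57 CPM). The unnamed cluster led by Gpx3 held Gas6 at 630 CPM in the wild-type 2-month library, against 262 CPM in macrophage-like and 72.5 CPM in RPE-like cells of that library.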

How the results depend on the processing

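Between RPE-like and macrophage-like cells, the set gave 3 genes higher in RPE-like and 18 in macrophage-like cells with no replicate block, and 3227 and 2212 over all genes. Over the other alternatives the set's counts ran from 3 to 5 and from 15 to 22. Leaving out 1 library in turn gave 2338 to 3670 genes higher in RPE-like and 1655 to 2708 in macrophage-like cells. These counts were 1553 and 803 with cells thinned to 1000 UMIs, and filterByExpr gave 2249 on the RPE side. Over the single genes of the set, 18 calls were lost, 6 were gained and 420 stayed, with none reversed. The calls lost were of Psap, Tfeb, Mertk, Ctsd and Gla. Within an age, no paired analysis was possible for Vldlr-/- against wild type because each group is 1 library, and a fit over both ages with age as a block was not run.

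For Vldlr-/- against wild type, the set's median stayed between 0.05 and 0.37 in RPE-like cells at 1 month (0.37 with at least 1000 genes per barcode), between -0.11 and 0.13 at 2 months (0.13 in Malat1-rich cells), and at 0.35 to 0.57 and 0.26 to 0.43 in macrophage-like cells. The number of genes 2-fold apart in RPE-like cells at 1 month was 1 in place of 0 with at least 1000 genes per barcode, thinning, equal weights, Malat1-rich cells or the Pmel-led cluster added. At 2 months it was 1 in place of 2 with at least 100 UMIs, in Malat1-poor and in Malat1-rich cells. In macrophage-like cells it was 1 in place of 2 with at least 100 UMIs, equal weights or without the deepest cell at 1 month. At 2 months it was 1 with a 15% mitochondrial limit and 0 with thinning. At 1.5-fold the counts were 1, 6, 6 and 9. Thinning, clustering with all variable genes and the limit of 1000 genes left under 30 macrophage-like cells at 1 month and gave no value. Equal weights, removal of the deepest cells, the Pmel-led cluster, the fixed cluster mix and the macrophage Malat1 limit were chosen after seeing the data. Low counts limit the 1-month libraries.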
